A study of Danio rerio with 2 samples.

Results

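The genes described here carry out DNA replication and mitosis, the steps by which a cell copies its genome and then divides it. They were followed by RNA sequencing of zebrafish hearts (Danio rerio, AB strain background, age 48 hpf, hours after fertilization) in 2 libraries, 1 of kctd10 mutants (kctd10 -/-) and 1 of wild-type fish. The number of hearts behind each library is not in the labels. kctd10 encodes an adaptor of the Cullin 3 ubiquitin ligase, and its homozygous mutation is the only genotype difference the labels give. A list of 39 gene symbols was looked up in the authors' gene names, of which 37 were found on 42 Ensembl identifiers, out of 26126 identifiers in the whole table. The symbols mcm2 and e2f1 were not matched there. The genes fall into 3 classes, with 18 identifiers for DNA replication, 5 for the control of the step from G1 into S phase, and 19 for mitosis.

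As background, a dividing cell first commits to replication when cyclin D and cyclin E with their kinases release E2F transcription factors, which turn on genes for replication proteins and nucleotide supply. Mitotic genes such as the B cyclins, spindle motors and checkpoint kinases are switched on later, in G2 and M phase, and their transcripts are lost after division. In the zebrafish embryo, heart muscle cells, skin, nervous system and blood all still contain dividing cells at this stage.

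Each genotype has 1 library, so there is no replicate check and no p-value of a difference, and ratios describe this pair of libraries only. The total over genes was 139099775 counts in the library labelled mutant and 150001992 in the library labelled wild type. Ratios are given after scaling by the trimmed mean of M values (TMM), with an exact 95% Clopper-Pearson interval that covers counting error only. A gene is called lower or higher beyond counting error when that whole interval lies below or above 1, and past 1.5-fold when it lies beyond 1.5-fold. The transcript of kctd10 itself had 19942 counts in the library labelled mutant and 8226 in the library labelled wild type, so its amount does not check the labels by loss. All 7 cardiomyocyte markers examined were present and higher in the library labelled mutant, with a summed level of 11522 CPM (counts per 1000000 of the scaled library size) against 7218 CPM in the library labelled wild type. This did not hold for all genes on a wider cardiac sarcomere list. Of 23 genes there, 16 were higher, 6 lower and 1 neither, with ratios from 0.102 for tcap to 2.25 for myh6. Of all genes with at least 10 counts, 33.9% were higher and 34.2% lower. The 4 skin markers held more counts than the 7 cardiomyocyte markers in both libraries. They summed to 23210 CPM in the library labelled mutant and 33713 CPM in the library labelled wild type. Of those sums, krt4 alone gave 21188 and 30287 CPM. RNA of another tissue was thus present in both libraries. In such bulk samples, fewer dividing cells and less RNA per cell cannot be told apart.

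Most mitosis genes had lower ratios than 1, while the replication genes were divided. Of 19 mitosis genes, 16 were lower beyond counting error, 0 were higher and 3 were neither. Of the 18 replication identifiers, 8 were higher, 9 were lower and 1 was neither. Among all 24009 measured genes, those with at least 10 counts over both libraries, 34.2% were lower and 33.9% higher by the same rule. Genes with more reads pass it more easily, and among the 14685 genes with at least 1000 counts, a level that 41 of the 42 identifiers reached, 39.8% were lower and 41.1% higher. The replication split was near those shares, and the mitosis split was not. The median ratio was 0.853 over the mitosis genes (log2 ratio −0.23), 0.972 over the replication identifiers (−0.04), 1.14 over the G1/S control genes (0.19), and the median log2 ratio over all measured genes was −0.0007.

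The sizes were modest. Past 1.5-fold, 2 of the 42 identifiers were lower and 0 higher, beside 6.68% and 5.99% of all measured genes and 5.55% and 5.36% of those with at least 1000 counts. Both of those 2 carry the name mcm5 in the authors' table but a heat shock name in a current one, as described below, and without them the count is 0. With the limit lowered to a ratio of 5 to 4, 8 of the 42 identifiers were lower, those 2 included, and 0 higher. The shares at this limit were 12.8% and 12% of all measured genes, and 12.3% and 11.9% of those with at least 1000 counts. Without those 2, the count was 6. These 6 were 1 of the identifiers named mcm3, and kif23, kif11, ccnb1, top2a and MKI67. In the authors' deposited table, which is a DESeq comparison without replicates, 40 of the 42 identifiers have an adjusted p of 1.

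**Figure D1:**
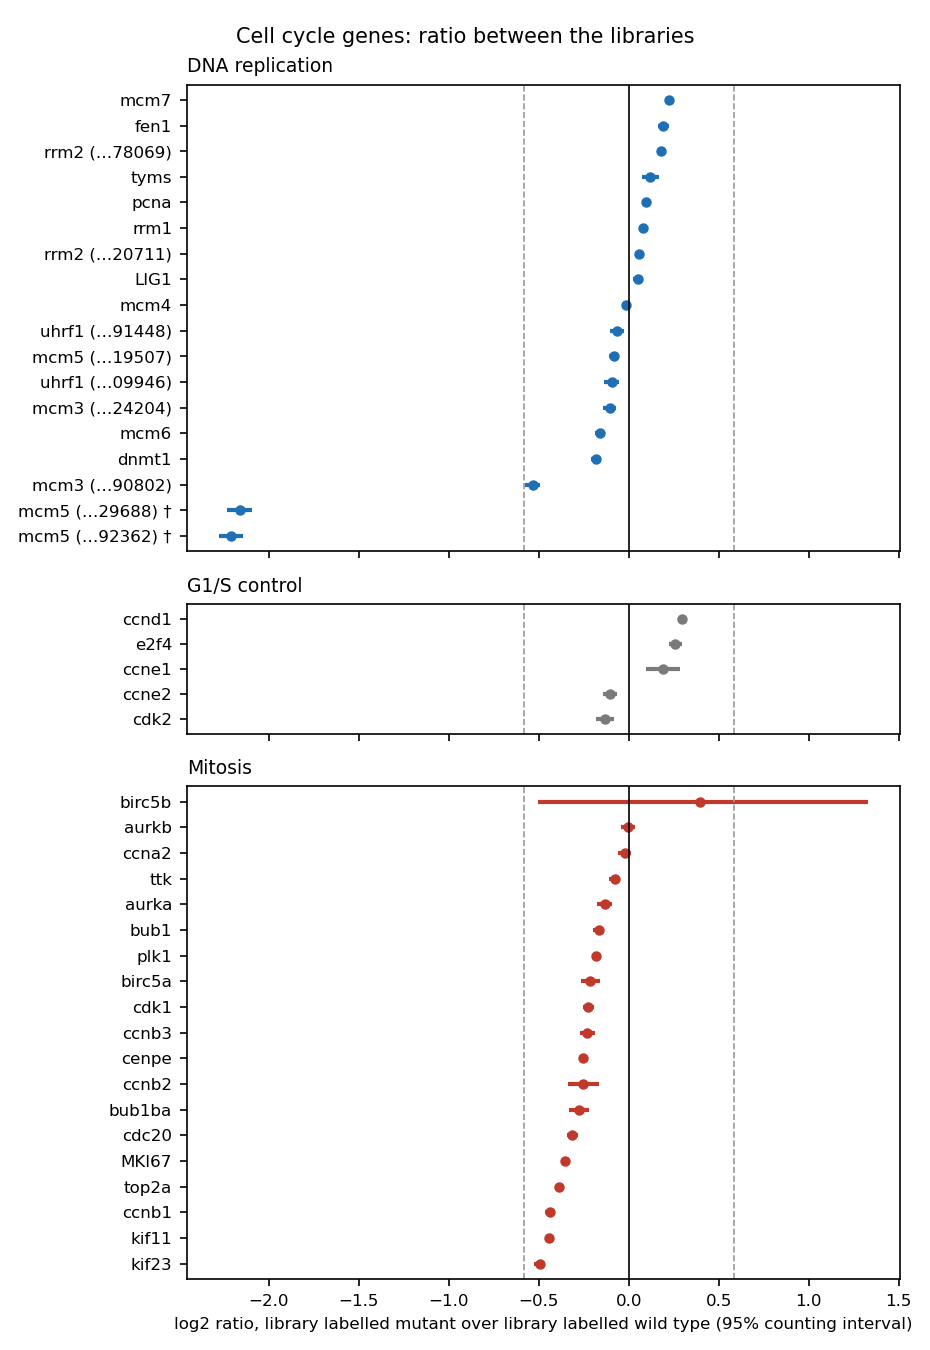
Log2 ratio (mutant over wild type, as labelled) for each gene, by class, with the exact 95% counting interval as a bar (hidden by the point where narrow), the line at no change and dashed lines at 1.5-fold. Of 19 mitosis genes 16 lie below no change with their whole interval, the replication genes lie on both sides, and the 2 identifiers marked with a dagger, named mcm5 by the authors, lie apart at −2.16 and −2.21.

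Among the replication genes, those of the MCM helicase subunits were divided. The symbols mcm3 and mcm6 were lower, mcm7 was higher, mcm4 was neither, and mcm5 is described below. Of all genes with at least 1000 counts, 39.8% were lower and 41.1% higher. The MCM proteins form the ring that unwinds DNA ahead of the replication fork. mcm7 had 37987 counts in the library labelled mutant and 34438 in the library labelled wild type, a ratio of 1.17 (1.15 to 1.18). It was the higher subunit gene, while mcm6 was lower, with 22362 counts against 26428 and a ratio of 0.895 (0.880 to 0.912). mcm4 had 30736 counts in the library labelled mutant and 32909 in the library labelled wild type, and its ratio of 0.988 (0.973 to 1.004) did not differ from 1 beyond counting error. The subunit genes thus did not move by a common factor between these libraries. In the authors' deposited UniGene table, mcm2 has a fold of 0.89.

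The symbol mcm3 stands on 2 identifiers. ENSDARG00000090802 had 7786 counts in the library labelled mutant and 11937 in the library labelled wild type, a ratio of 0.690 (0.671 to 0.710). ENSDARG00000024204 had 11484 counts against 13067, a ratio of 0.930 (0.907 to 0.954). Both were lower, but by different amounts, and they may share reads, so they are uncertain as separate values. In the authors' deposited UniGene table, mcm3 has a fold of 0.79, which lies between those ratios.

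The symbol mcm5 stands on 3 identifiers that went apart. ENSDARG00000019507 had 22607 counts in the library labelled mutant and 25352 in the library labelled wild type, a ratio of 0.944 (0.927 to 0.961), within the range of the other MCM genes. ENSDARG00000029688 had 1950 counts against 9244, a ratio of 0.223 (0.212 to 0.234). ENSDARG00000092362 had 2272 counts against 11129, a ratio of 0.216 (0.206 to 0.226). ENSDARG00000029688 and ENSDARG00000092362 had by far the lowest ratios of the 42 identifiers, with adjusted p-values of 4.30e-05 and 2.25e-05 in the authors' deposited DESeq table, where 1.69% of all genes pass 0.05.

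The current gene name table calls ENSDARG00000029688 hsp70.1 and ENSDARG00000092362 HSPA2, both names of the Hsp70 family of heat shock chaperones, and calls ENSDARG00000019507 MCM5. In RefSeq's current zebrafish assembly GRCz12tu, hsp70.1, hsp70.2 and hsp70.3 lie on chromosome 3 with mcm5, separated from it by 9, 10 and 11 other genes. The authors' table names 2 further identifiers hsp70l. ENSDARG00000055723 had 2349 counts in the library labelled mutant and 11752 in the library labelled wild type, a ratio of 0.212 (0.202 to 0.221). ENSDARG00000021924 had 2404 counts against 12065, a ratio of 0.211 (0.202 to 0.220). The 2 identifiers named mcm5 with low counts had ratios like those of the hsp70l identifiers and unlike that of ENSDARG00000019507. Hsp70 genes resemble each other, so reads may be shared among these 4 identifiers and they are uncertain as separate values. Without the pair, 16 replication identifiers remained, 8 higher, 7 lower and 1 neither, with a median log2 ratio of 0.02.

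The reductase and thymidylate synthase genes were slightly higher in the library labelled mutant. Other nucleotide genes outside the 42 identifiers were lower, namely dut (0.922), tk1 (0.852 and 0.840 on 2 identifiers that may share reads) and dck, described below. rrm1 encodes the large subunit of ribonucleotide reductase, the enzyme that makes the building blocks of DNA. It had 74683 counts in the library labelled mutant and 74825 in the library labelled wild type, which differ in total size, giving a ratio of 1.06 (1.05 to 1.07). The small subunit symbol rrm2 stands on 2 identifiers, with 62198 counts against 58048 (ENSDARG00000078069, ratio 1.13, 1.12 to 1.15) and 60546 counts against 61545 (ENSDARG00000020711, ratio 1.04, 1.03 to 1.05), which may share reads. tyms, for the synthase that makes thymidylate, had 7423 counts in the library labelled mutant and 7233 in the library labelled wild type, a ratio of 1.09 (1.05 to 1.12).

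The genes pcna, fen1 and LIG1 were likewise higher by small amounts, which did not hold for all fork genes, as the polymerases below and the MCM genes above were divided. pcna, for the sliding clamp that holds the polymerase on DNA, had 91887 counts in the library labelled mutant and 90980 in the library labelled wild type, a ratio of 1.07 (1.06 to 1.08). fen1, for the flap nuclease that trims Okazaki fragments, had 17289 counts against 16020 and a ratio of 1.14 (1.12 to 1.17). LIG1, for the ligase that joins those fragments, had 23487 counts against 24001 and a ratio of 1.04 (1.02 to 1.05). These 3 genes therefore lay on the same side as rrm1, rrm2 and tyms.

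The pair of genes that copy DNA methylation onto new strands lay on the other side. dnmt1, the maintenance methyltransferase, had 25659 counts in the library labelled mutant and 30854 in the library labelled wild type, a ratio of 0.880 (0.866 to 0.895). uhrf1, which brings that enzyme to hemimethylated sites, stands on 2 identifiers with near-equal counts. ENSDARG00000009946 had 9802 counts against 11083, a ratio of 0.936 (0.911 to 0.962), and ENSDARG00000091448 had 9964 counts against 11040, a ratio of 0.955 (0.929 to 0.981). They may share reads and are uncertain as separate values.

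The 5 genes that control entry into S phase were divided, also between the paralogous cyclin E genes. ccnd1, the cyclin D1 gene of the G1 phase, had 72906 counts in the library labelled mutant and 62870 in the library labelled wild type, a ratio of 1.23 (1.21 to 1.24). e2f4, an E2F family member best known as a repressor, had 12586 counts against 11128, a ratio of 1.20 (1.17 to 1.23), and ccne1 had 1864 against 1731, a ratio of 1.14 (1.07 to 1.22). Those 3 were higher, while the second cyclin E gene ccne2 and its kinase partner were lower. Of all genes with at least 1000 counts, 41.1% were higher and 39.8% lower. ccne2 had 9269 counts in the library labelled mutant and 10543 in the library labelled wild type, a ratio of 0.930 (0.905 to 0.957). cdk2 had 6412 counts against 7435, a ratio of 0.913 (0.882 to 0.944).

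**Figure D2:**
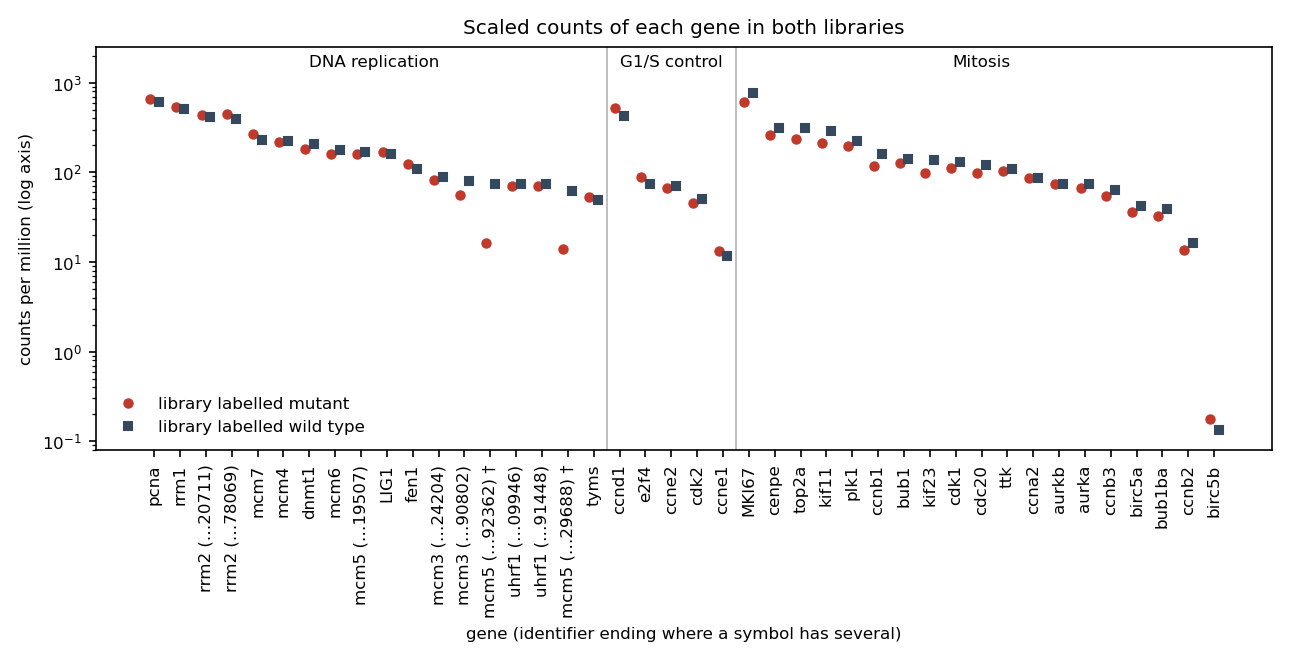
Scaled counts in CPM (log axis) of each gene in the library labelled mutant (circles) and the library labelled wild type (squares), by class and ordered within each class. Most pairs nearly coincide at this scale, the 2 daggered mcm5 identifiers are far apart, at 16.2 and 13.9 CPM in the library labelled mutant against 74.9 and 62.2 CPM in the library labelled wild type, and birc5b is near the bottom. CPM is not corrected for gene length, so heights are not compared between genes.

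Among the mitosis genes, the lowest ratios were those of kif23, kif11, ccnb1, top2a and MKI67. kif23, a kinesin of the central spindle needed to finish cell division, had 13830 counts in the library labelled mutant and 20641 in the library labelled wild type, a ratio of 0.709 (0.694 to 0.724). kif11, the kinesin that pushes the spindle poles apart, had 29930 counts against 43054, a ratio of 0.736 (0.725 to 0.747). cenpe, a kinetochore kinesin, had 37005 counts against 46658, a ratio of 0.839 (0.828 to 0.851). All 3 motors were lower, beside 39.8% of all genes with at least 1000 counts. top2a, the topoisomerase that untangles sister chromatids, had 33137 counts in the library labelled mutant and 45961 in the library labelled wild type, a ratio of 0.763 (0.752 to 0.774). MKI67, the gene of the proliferation antigen Ki-67 that coats mitotic chromosomes, had 85030 counts against 115055, a ratio of 0.782 (0.775 to 0.789).

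The B cyclins and their kinase were lower too, and cyclin A was not. Cyclin B with Cdk1 drives entry into mitosis. ccnb1 had 16586 counts in the library labelled mutant and 23804 in the library labelled wild type, a ratio of 0.737 (0.723 to 0.752). ccnb2 had 1929 counts against 2433, a ratio of 0.839 (0.790 to 0.891), and ccnb3 had 7632 against 9473, a ratio of 0.853 (0.827 to 0.879). cdk1 had 15730 counts against 19451, a ratio of 0.856 (0.838 to 0.874), so cyclins and kinase were lower by unequal amounts. ccna2, whose cyclin acts already in S phase, had 12093 counts in the library labelled mutant and 13007 in the library labelled wild type, and its interval included 1 (ratio 0.984, 0.960 to 1.009).

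The mitotic kinases ranged from no detectable difference to about the class median. bub1ba and bub1, genes of the spindle checkpoint, had ratios of 0.826 (0.795 to 0.859), on 4574 against 5857 counts, and 0.890 (0.872 to 0.908), on 17637 against 20972 counts. plk1, the polo-like kinase of mitotic entry and exit, had 27639 counts in the library labelled mutant and 33200 in the library labelled wild type, a ratio of 0.881 (0.867 to 0.895). aurka, for the kinase of the spindle poles, had 9483 counts against 11015, a ratio of 0.911 (0.886 to 0.936). ttk, the checkpoint kinase Mps1, had 14613 against 16334 counts, a ratio of 0.947 (0.926 to 0.968). aurkb, the kinase of the chromosomal passenger complex, had 10479 against 11126 counts, a ratio of 0.997 (0.970 to 1.024). Within the kinases, then, 5 of 6 were lower beyond counting error. By the same rule, 34.2% of all measured genes were lower, and 39.8% of those with at least 1000 counts.

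Exit from mitosis was covered by cdc20 and the survivin genes. cdc20, the activator of the anaphase-promoting complex, had 13717 counts in the library labelled mutant and 18034 in the library labelled wild type, a ratio of 0.805 (0.787 to 0.823). birc5a, for survivin, a partner of Aurora B, had 5081 counts against 6238, a ratio of 0.862 (0.830 to 0.895). Its paralogue birc5b had 25 and 20 counts, and its ratio of 1.32 (0.705 to 2.51) cannot be told from 1 at this depth.

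Summed over each class, mitosis was lower, while replication and G1/S control were higher. Such sums follow the most counted genes. Those were pcna, rrm1 and the 2 rrm2 identifiers for replication, ccnd1 for G1/S control and MKI67 for mitosis. Of the 16 replication identifiers below, 8 were higher and 7 lower. The 19 mitosis genes held 356150 counts in the library labelled mutant (2536 CPM) and 462333 in the library labelled wild type (3111 CPM), a ratio of 0.815 (0.812 to 0.819). The 16 replication identifiers, without the 2 heat shock identifiers, held 515900 counts in the library labelled mutant (3674 CPM) and 529760 in the library labelled wild type (3565 CPM), a ratio of 1.03 (1.027 to 1.034). The G1/S genes held 103037 against 93707 counts, a ratio of 1.16 (1.15 to 1.17). Of these counts, ccnd1 alone gave 72906 and 62870. Between class medians, mitosis minus replication was −0.19 on the log2 scale with all 18 replication identifiers and −0.25 without those 2. Mitosis minus G1/S control was −0.42. Of the 304 pairs of 1 mitosis gene and 1 replication identifier, the mitosis gene had the lower ratio in 248 (81.6%), and 18 of 19 mitosis genes lay below the median of those 16 replication identifiers, birc5b being the exception. Below the median of all 18 replication identifiers lay 16 of 19, with ccna2 and aurkb above it too. The 16 replication identifiers stand for 13 symbols, since mcm3, rrm2 and uhrf1 each enter on 2 identifiers that may share reads. Genes are not replicates, so these counts describe the 2 libraries and were not tested.

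The difference between classes does not depend on how the libraries were scaled, since a scaling moves every log2 ratio by the same amount. The values that follow leave out the 2 heat shock identifiers. The mitosis median lay below 0 under all 6 scalings. The replication and G1/S medians lay above 0, except when scaled to cardiac sarcomere genes. Scaled so that the median of 23 cardiac sarcomere genes is 0, which shifted all log2 ratios by −0.34, the medians were −0.57 for mitosis, −0.33 for replication and −0.15 for G1/S genes, and 0 identifiers were higher. Scaled to the median of 82 cytosolic ribosomal protein genes, a shift of 0.10, they were −0.13, 0.12 and 0.29, and 14 of 19 mitosis genes were still lower, with 2 higher. The share of all measured genes lower or higher was computed under TMM only. The counts under these scalings thus have no such share beside them.

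**Figure D3:**
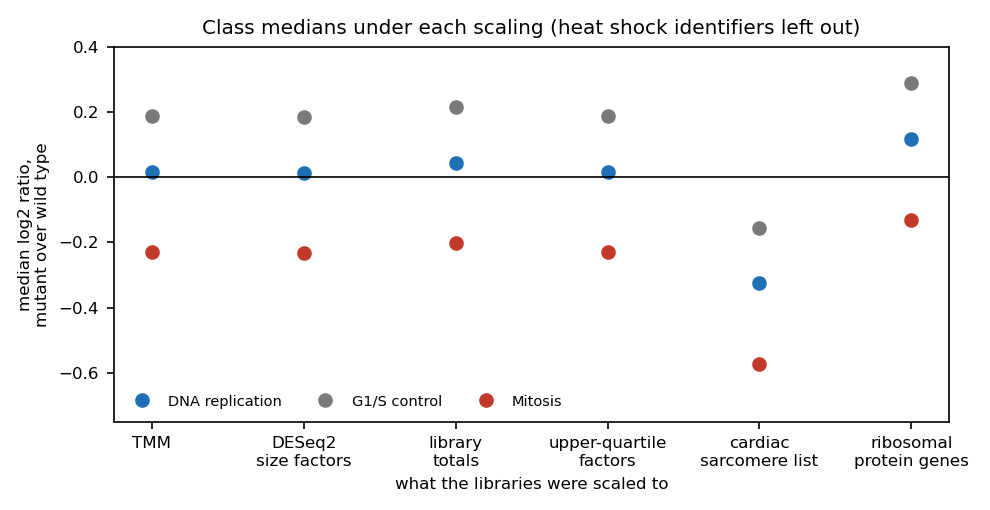
Median log2 ratio of each class, mutant over wild type as labelled, under 6 ways of scaling the libraries, without the 2 heat shock identifiers. The 3 points keep their distances, with mitosis lowest, at −0.23 under TMM and −0.57 when scaled to cardiac sarcomere genes, where all 3 medians lie below 0.

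Further genes, from broader lists drawn up for each process, were read in the same way. The mitosis list also holds genes that are not specific to mitosis, such as h2afx, hmgb2a, hmgb2b and aurkaip1. Of 54 other replication genes measured, 24 were higher, 17 lower and 13 neither, with a median log2 ratio of 0.03. Of 67 measured genes on the mitosis list, 45 were lower, 10 higher and 12 neither, with a median of −0.15. Among all measured genes 34.2% were lower and 33.9% higher. Most genes on both lists had at least 1000 counts, and of all genes at that level 39.8% were lower and 41.1% higher. The difference between those medians was −0.17, and in each list 1 gene was lower past 1.5-fold and 0 higher, beside 6.68% and 5.99% of all measured genes. These were dck, for deoxycytidine kinase (981 counts in the library labelled mutant and 1957 in the library labelled wild type, ratio 0.530, 0.491 to 0.573), and h2afx, the gene of histone H2AX (1396 against 2617 counts, ratio 0.564, 0.529 to 0.603). Among the most counted of these replication genes, chaf1a, a subunit gene of the replication-coupled chromatin assembly factor, had a ratio of 1.28 (39886 counts in the library labelled mutant and 33061 in the library labelled wild type), while rpa1 and nasp had 1.04 and 1.06. The most counted genes on the mitosis list, hmgb2b, lmnb1 and tpx2, had ratios of 0.962, 0.894 and 0.849.

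Sorted by role after the values were known, the replication genes differed among complexes. Beyond counting error, 33.9% of all measured genes were higher and 34.2% lower, and 41.1% and 39.8% of those with at least 1000 counts. Of 6 origin recognition genes 4 were higher, led by orc3 (4896 against 3800 counts, ratio 1.36, 1.31 to 1.42), and orc1 was lower (ratio 0.902). Of 5 clamp loader genes 4 were higher, with rfc2 at a log2 ratio of 0.38, and rfc1 was neither. cdc6, which loads the MCM ring and is needed before S phase, was lower, with 6712 counts in the library labelled mutant and 9197 in the library labelled wild type and a ratio of 0.772 (0.748 to 0.797). Its partner cdt1 had a ratio of 0.984 (0.942 to 1.03), and gmnn, for the Cdt1 inhibitor geminin, was higher at 1.08 (1.01 to 1.15). The 9 polymerase and primase genes were divided, with 4 higher (44.4%), 4 lower (44.4%) and 1 neither, near the shares of well-counted genes. Their ratios ran from 0.810 for pole2 to 1.35 for PRIM2.

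Sorted the same way, the mitosis genes were lower in most roles. Beyond counting error, 34.2% of all measured genes were lower and 33.9% higher, and 39.8% and 41.1% of those with at least 1000 counts. All 10 mitotic kinesin genes were lower, from kif23 to kif22 (0.930), with a median ratio of 0.846. Of 38 other measured genes whose symbol starts with kif, 26 (68.4%) were lower and 5 (13.2%) higher. Of these 38, 8 were lower past 1.5-fold, beside 6.68% of all measured genes. Lower ratios were thus common among kif symbols beyond those 10. These 38 were not sorted by role, so some may act in mitosis too. Among 9 spindle pole and assembly genes 8 were lower, aspm most (25743 counts in the library labelled mutant and 39264 in the library labelled wild type, ratio 0.694, 0.683 to 0.705). Of 4 cytokinesis genes 3 were lower and ect2 (0.981, 0.952 to 1.01) was neither. Among the lower ones prc1b had 0.958 (0.926 to 0.991), and racgap1, a partner of the kif23 protein, and anln, for the contractile ring scaffold anillin, had ratios of 0.754 (0.732 to 0.777) and 0.797 (0.782 to 0.813). All 5 further genes of anaphase onset were lower, and fbxo5, for an inhibitor of the anaphase-promoting complex, had 0.714 (0.687 to 0.743).

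Condensins, the complexes that compact chromosomes, leaned apart by type in this sorting, with some overlap. Condensin I and condensin II share the subunits of smc2 and smc4, with ratios of 0.876 (0.863 to 0.890) and 0.836 (0.823 to 0.850). The condensin I genes ncapd2, ncaph and ncapg had 0.922, 0.904 and 0.975 (0.958 to 0.992 for ncapg), all 3 lower beyond counting error. Of the condensin II genes, ncaph2 (1.07, 1.03 to 1.10) and ncapd3 (1.05, 1.02 to 1.08) were higher and ncapg2 (0.992, 0.954 to 1.03) was neither. The intervals of ncapg and ncapg2 overlapped. The 4 NDC80 complex genes of the kinetochore were divided, with ndc80 lower (0.880), spc25 higher (1.16) and nuf2 and spc24 neither.

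**Figure D4:**
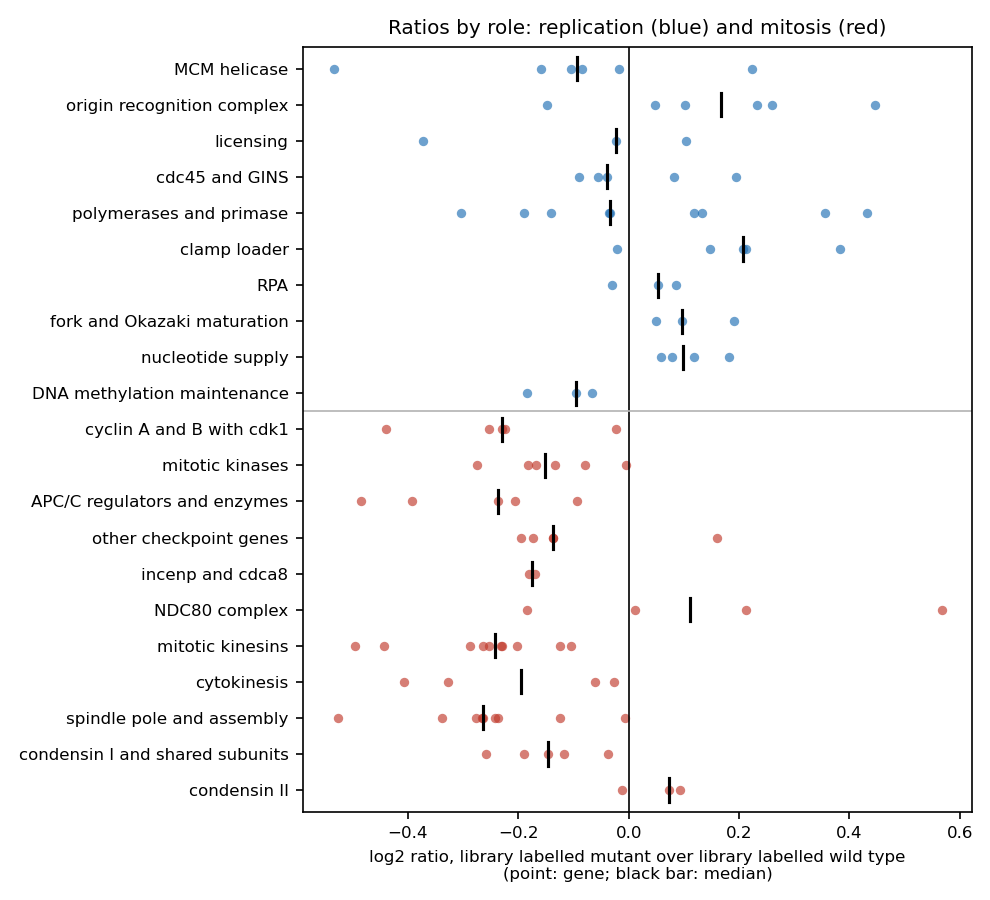
Log2 ratio of each gene, mutant over wild type as labelled, grouped by role, with replication roles in blue above and mitosis roles in red below and black bars at role medians. The 10 mitotic kinesins all lie below 0, and the clamp loader genes lie mostly above it with a median of 0.21. Condensin II, plotted without the shared smc2 and smc4, lies at 0.07, against −0.15 for condensin I plotted with them.

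Genes that restrain the cycle included larger differences. Of 16 measured genes of Cdk inhibitors, pocket proteins and related growth restraints, 5 were higher, 7 lower and 4 neither beyond counting error. Their median log2 ratio was −0.002, and of all measured genes 33.9% were higher and 34.2% lower. Past 1.5-fold, 3 were higher and 1 was lower, beside 5.99% higher and 6.68% lower of all measured genes. cdkn1a, for the Cdk inhibitor p21, had 5215 counts in the library labelled mutant and 1792 in the library labelled wild type, a ratio of 3.08 (2.92 to 3.25). The others higher past 1.5-fold were ccng1, a p53 target cyclin, with 245212 counts against 70678 (ratio 3.67, 3.64 to 3.70), and the pocket protein gene rbl2, with 3914 against 2047 (ratio 2.02, 1.92 to 2.14). btg2, an antiproliferative early response gene, was lower, with 30942 counts against 75186 (ratio 0.435, 0.430 to 0.441). The other cyclin G gene on the list, ccng2, was also lower (ratio 0.698, 0.679 to 0.716), but not past 1.5-fold. The paralogous inhibitors cdkn1ba and cdkn1bb went apart, at 1.34 (1.29 to 1.40) for cdkn1ba and at 0.782 and 0.756 for the 2 identifiers of cdkn1bb. The 2 cdkn1bb identifiers may share reads. rb1 (1.01) and rbl1 (0.974) were neither, and btg1, the most counted after ccng1 here, was lower by a log2 ratio of only −0.01.

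Of 27 further measured genes of G1 cyclins, kinases, E2F and Myc, 11 (40.7%) were higher and 10 (37.0%) lower beyond counting error. Their median log2 ratio was 0.04. Those shares were near the 33.9% and 34.2% of all measured genes, and the 41.1% and 39.8% of those with at least 1000 counts. Past 1.5-fold, 2 were higher and 1 lower, beside 5.99% and 6.68% of all measured genes. The higher ones were mycn (21858 counts in the library labelled mutant and 12465 in the library labelled wild type, ratio 1.86, 1.82 to 1.90) and, on few counts, ccna1 (55 against 15, ratio 3.88, 2.16 to 7.39). mycb was lower (5913 against 13695, ratio 0.457, 0.443 to 0.471). Myc proteins are transcription factors that promote growth and cycle entry. E2F2 (0.833, 0.805 to 0.862) was lower and e2f5 (1.23, 1.11 to 1.37) higher, and the most counted genes beside mycn, tfdp2 and e2f8, had 0.960 and 0.904.

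Markers of other tissues also differed between the libraries, and no defining marker was at 0. The 4 neuron markers were all lower, with a summed level of 574 CPM in the library labelled mutant against 832 CPM in the library labelled wild type, and so were all 4 skin markers and all 6 skeletal muscle markers (586 against 1352 CPM). Of 6 neural progenitor markers, genes of a dividing population, 5 were higher and 1, fabp7a, lower, with a summed level of 1134 CPM in the library labelled mutant against 1303 CPM in the library labelled wild type, and of 4 retinal progenitor markers 3 were higher (325 against 249 CPM summed). Myeloid markers were higher in 5 of 5 cases. Of 4 endothelial markers 2 were higher and 2 lower, of 3 erythroid markers 2 were higher and 1 lower, and all 3 lens markers were higher. The part of these tissues in the cell cycle ratios was not tested.

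The authors' deposited UniGene table, made from the same samples, gives the classes in the same order. Its 14 clusters with a mitosis symbol have a median fold of 0.845, from 0.6 for a cluster of top2a to 1 for aurkb, with 13 of 14 below 1. Its 13 replication clusters have a median of 1, with 6 below and 6 above 1, and its 22734 clusters in all have a median of 1.01, with 47.6% below 1. Of these, ccna2 has a fold of 0.88 there, beside the ratio of 0.984 on Ensembl genes. As both tables come from 1 library per genotype, the second is no replicate of the first.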

How the data were processed

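Per the submitters' processing notes, TopHat, DESeq and genome build Zv9 were used. Neither versions, nor the counting tool, the strand setting or the handling of reads with several matches could be taken from these sources. Counts per Ensembl gene were deposited as whole numbers without normalization. The line naming no gene held 9.17% of counts in the library labelled mutant and 9.21% in the library labelled wild type, and was left out. Per the file headers, the authors also deposited a DESeq comparison holding folds on linear and log2 scales with raw and adjusted p-values, and a UniGene comparison with a fold and its log2 value. In the UniGene table the fold is headed OE over CON, and is read here as mutant over wild type from the table's first line. A further 7 columns of numbers were not used. The count columns carry abbreviations of the genotypes and were assigned on that basis.

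TMM scaling came from edgeR 4.0.16 (R 4.3.3) (effective sizes 140420264 and 148591398 counts for the libraries labelled mutant and wild type). Ratios, exact 95% intervals and log2 ratios with 0.5 added to each count were computed with scipy 1.17.1 for genes with at least 10 counts. The steps were first run on simulated data with counting error only, which does not test variation between fish or libraries. Alternatives used DESeq2 1.42.0 size factors, other scalings, limits and summaries. Intervals treat each read as a separate molecule, although PCR copies could not be removed by molecular tags. The genes, lists and rules were chosen with earlier results of these data known. All members are named. Of other lists the 3 most counted genes and up to 4 past 1.5-fold in each direction were named, and further genes after their values were seen. No sequences or coordinates of Zv9 were used, and the planned search of promoter motifs was not run.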

Additional observations from a re-analysis of the deposited data

How the results depend on the processing

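No paired analysis was possible because each genotype has 1 library, and for the same reason no library could be left out. With DESeq2 size factors, upper-quartile factors, library totals, the authors' deposited folds, a 99% interval and other count minimums (at least 1 or 50 counts), each class median, the difference between classes and each count of calls stayed within counting error or 1.5 times its value. Under library totals, 16 of the 42 single log2 ratios moved outside their counting intervals. For the scalings that follow, medians and counts cover all 42 identifiers, the heat shock ones included. Scaled to the cardiac sarcomere list, the medians were −0.38 for replication, −0.57 for mitosis, −0.46 for all genes described and −0.15 for G1/S control (0.19 under TMM), 9 identifiers were past 1.5-fold, 41 were lower and 0 higher. That scaling turned 11 single log2 ratios below 0: ccne1 (−0.15), fen1 (−0.15), rrm1 (−0.26), both rrm2 identifiers (−0.28 and −0.16), e2f4 (−0.083), ccnd1 (−0.047), mcm7 (−0.12), tyms (−0.22), pcna (−0.25) and LIG1 (−0.29). Scaled to ribosomal protein genes, the medians were 0.058 for replication, −0.13 for mitosis, 0.29 for G1/S control and −0.018 for all. Under it 19 identifiers were lower and 14 higher, against 27 and 11 under TMM. The log2 ratios of uhrf1 (0.0044 and 0.034), mcm5 (0.016) and ttk (0.021) turned above 0, as did mcm4 (0.083), ccna2 (0.076) and aurkb (0.095), whose intervals had included 1. These shifts follow from the scalings themselves, and the share of all measured genes lower or higher was not computed under these scalings.

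The replication median of −0.04 turned to 0.050 with identifiers of each symbol summed and to 0.017 without the 2 heat shock identifiers, an alternative chosen after seeing the data, and its mean was −0.26. The mean over all identifiers was −0.20. Mitosis minus replication was −0.28 with identifiers summed and 0.042 by means, but −0.20 by means without the heat shock identifiers, so that reversal rests on those 2. By the authors' UniGene folds, added later, the replication median was −0.01. Past other limits or sets, the count of 2 past 1.5-fold was 8 at the lower limit of 5 to 4, 1 with identifiers summed and 0 without the heat shock identifiers. In every value with identifiers summed, mcm5 included the 2 heat shock identifiers. Of the 42 identifiers, birc5b alone had too few counts for a narrow interval.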
